A study of Mus musculus with 6 samples.

Results

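The Notch genes described here are 10 rows of the 23420 genes in each of 2 tables of sequencing reads counted per gene, chosen by symbol. They comprise the receptors *Notch1*, *Notch2*, *Notch3* and *Notch4*, the ligands *Jag1*, *Jag2* and *Dll1*, and the transcription factors *Hes1*, *Hey1* and *Hey2*, which are classical Notch targets. All 10 were found in both tables, and all 10 had 10 or more reads over the 3 libraries of each tissue, the minimum for a comparison. The study asked how uterine leukemia inhibitory factor (Lif), a cytokine that signals through Stat3, acts on the lining of the uterus and on the blastocyst before attachment. One table covers the luminal layer, the sheet of cells facing the uterine cavity, taken by laser microdissection. The other covers blastocysts flushed from the uterine horns of mothers of the same 3 groups.

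In each tissue there were 3 groups, all taken on day 4 of pregnancy at 8 pm. The luminal control was Lif-floxed/floxed given PBS, without Cre. The luminal eKO was Lif-floxed/floxed Ltf-Cre/+ given PBS, in which Cre under the lactoferrin (*Ltf*) promoter acts in the uterine epithelium and leaves the stroma, the muscle and the embryo able to make Lif. The third group had the eKO genotype and received recombinant Lif (rLif), 20 µg for each animal at 10 am and again at 6 pm, and was dissected 2 h after the second dose. Blastocysts were labelled Lif-floxed/+ in all 3 groups, so the blastocyst groups differ in the mother and not in the embryo's stated genotype. Every group was 1 library made by SMART-seq v4, a low-input method, from RNA pooled over several animals or from pooled blastocysts. The values below thus compare single pooled libraries. With no replicate in any group, animal-to-animal spread is unknown and no p-value is given.

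Notch receptors are single-pass membrane proteins that bind Jagged or Delta-like ligands on a neighbouring cell. Binding lets ADAM proteases and then the gamma-secretase complex cut the receptor, and the freed intracellular domain joins the DNA-binding protein Rbpj and a Mastermind-like coactivator to switch on genes such as *Hes1*, *Hey1* and *Hey2*. Hes and Hey proteins are basic helix-loop-helix repressors. Ligand on the same cell can also block the receptor, and in the uterus Notch signalling is known for roles in the vasculature and in decidualization of the stroma.

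*Hes1* and *Hey2* share a short motif near the carboxyl end of the protein, a tetrapeptide through which Hes proteins recruit the corepressors of the Tle family. The last coding bases of both are printed here, stop codon included, because they show how these target genes differ in this motif. The capitals mark the codons of the tetrapeptide. It reads WRPW in *Hes1* (282 residues), with 2 residues after it. In *Hey2* (339 residues) it reads YQPW, with 7 residues after it. Positions are those of GENCODE M21 on GRCm38, chr16:30067369-30067428 on the plus strand for *Hes1* and chr10:30833736-30833795 on the minus strand for *Hey2*. Both stretches are exonic coding sequence, written 5′ to 3′.
Hes1 coding end: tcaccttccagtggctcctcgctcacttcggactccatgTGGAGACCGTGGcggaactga
Hey2 coding end: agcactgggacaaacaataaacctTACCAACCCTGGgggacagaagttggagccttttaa

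Promoter sequence was taken from RefSeq (GRCm38.p6) as the 250 bases before each annotated start, and 8 of the 10 genes were matched there, with 9 windows since *Dll1* has 2 starts. *Hes1* and *Hey1* were not matched. The 3 windows printed belong to genes that differed most between luminal libraries among those matched, *Hey2*, *Jag1* and *Notch2*. Each window was searched on both strands for the core of the Rbpj site, TGGGAA, and for the core of a Stat site, TTCNNNGAA. The Rbpj core occurred in 1 of the 9 windows, that of *Hey2*, where it lies on the opposite strand, is marked in capitals and begins 207 bases before the start. It occurred in 21.6% of all 32851 promoter windows of this length. The Stat core occurred in 0 of the 9 windows and in 7.02% of all windows. A match is a run of letters and not a shown binding site, and a missing match says only that these letters are not in this window. The windows are chr10:30842784-30843033 on the minus strand (*Hey2*), chr2:137116521-137116770 on the minus strand (*Jag1*) and chr3:98013288-98013537 on the plus strand (*Notch2*), written 5′ to 3′ on the gene's strand.
Hey2 promoter: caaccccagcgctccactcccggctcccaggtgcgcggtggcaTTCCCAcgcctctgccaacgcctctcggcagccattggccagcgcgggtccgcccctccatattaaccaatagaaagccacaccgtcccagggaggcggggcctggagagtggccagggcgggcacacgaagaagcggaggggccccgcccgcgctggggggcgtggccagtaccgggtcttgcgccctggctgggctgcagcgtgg
Jag1 promoter: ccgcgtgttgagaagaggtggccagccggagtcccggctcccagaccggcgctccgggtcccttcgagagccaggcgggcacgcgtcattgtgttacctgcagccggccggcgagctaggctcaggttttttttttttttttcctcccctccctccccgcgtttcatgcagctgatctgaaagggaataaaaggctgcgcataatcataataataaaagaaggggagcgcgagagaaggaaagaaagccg
Notch2 promoter: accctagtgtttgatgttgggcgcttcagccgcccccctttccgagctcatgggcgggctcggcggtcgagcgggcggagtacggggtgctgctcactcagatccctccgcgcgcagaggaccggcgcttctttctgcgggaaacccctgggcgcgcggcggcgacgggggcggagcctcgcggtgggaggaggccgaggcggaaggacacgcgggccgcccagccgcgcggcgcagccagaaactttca

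The libraries were checked before the Notch genes were compared. Total counts ran from 18996158 to 28460465 per library. *Lif*, the targeted gene, had 0 reads in the control-labelled luminal library, 28 in the library labelled eKO and 0 in the luminal library with rLif. In epithelium the labels would give no more *Lif* in eKO than in control, which is not the order seen here. The label eKO leaves the stroma able to make *Lif*. Reads were counted over the whole gene, so those from outside the deleted segment were not told apart. The source of the 28 reads was not tested, and the 0 with rLif does not go against its label. At this stage *Lif* is made mainly in the uterine glands, whose markers were low in all 3 libraries, so the 0 in control is not by itself against the label. The luminal libraries are called by their labels, and every luminal direction below is one between labelled libraries. In blastocysts *Lif* had 1447 reads in control, 1736 in eKO and 1250 with rLif. The luminal libraries held the 9 luminal epithelial markers at a summed 5308, 7981 and 5699 CPM (counts scaled to a common library size, in the order control, eKO and eKO with rLif), with the pluripotency genes *Pou5f1* and *Nanog* at 0 reads in all 3. They also held other cells' transcripts, with a stromal list of 9 genes at 739, 1129 and 780 CPM, an immune list of 8 at 901, 754 and 786 CPM, an endothelial list of 9 at 81.4, 108 and 134 CPM, a smooth muscle and pericyte list of 8 at 91.4, 91.4 and 55.3 CPM, and a glandular list of 6 at 12.3, 14.0 and 26.4 CPM. The blastocyst libraries held 8 trophectoderm markers at 7013, 7482 and 7325 CPM, 4 inner cell mass markers at 594, 623 and 783 CPM and 6 primitive endoderm markers at 1457, 1555 and 1431 CPM. Several of these sums do not separate the tissues. The luminal epithelial list stood at 6916, 7266 and 6876 CPM in blastocysts. In the luminal libraries the trophectoderm list, which shares *Krt8* and *Krt18* with it, stood at 2377, 3123 and 1962 CPM. The primitive endoderm list stood there at 1199, 1803 and 2645 CPM, and the inner cell mass list at 0.317, 0.662 and 0 CPM. In these bulk libraries, fewer cells of a type and less RNA per cell cannot be told apart.

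Between 2 libraries of a tissue, a gene is called higher or lower when the exact 95% interval of its ratio lies wholly beyond a log2 ratio of 1, that is beyond 2-fold. These intervals cover counting error only, because each group has 1 library. They take each read as an independent count. PCR copies were not told apart by molecular identifiers, so the intervals may be too narrow even for counting error. In the luminal layer, the library labelled eKO against the control-labelled library had 1 of the 10 Notch genes called higher (*Hey2*), where 8.08% of all 15694 genes tested were called higher, and 1 called lower (*Hey1*), where 9.15% were. For eKO with rLif against control, 0 were called higher against 4.12% of all genes, and 1 was called lower (*Hey1*) against 5.04%. For eKO with rLif against eKO, 1 was called higher (*Jag1*) against 7.88% of all genes, and 2 were called lower (*Notch2* and *Hey2*) against 7.77%. With 10 genes, counts of 0 to 2 are near these shares and are not a result about the Notch genes as a group.

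In blastocysts, eKO against control had 0 of the 10 called in either direction, where 1.29% of all 14873 genes tested were called higher and 1.86% lower. The comparison of eKO with rLif against control had 0 called higher against 0.948% of all genes and 1 called lower (*Jag1*) against 3.99%. For eKO with rLif against eKO, 1 was called higher (*Hey2*) against 0.914% of all genes and 1 lower (*Jag1*) against 2.83%. The 3 comparisons of a tissue share libraries, so their calls are not independent of each other.

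The median log2 ratio of the 10 genes was 0.97 for luminal eKO against control, 0.69 for eKO with rLif against control and -0.24 for eKO with rLif against eKO. The corresponding medians over all genes tested were 0.01, 0.01 and -0.01. In luminal eKO against control the 95% interval lay above 0 for 5 genes, *Notch1*, *Notch2*, *Notch4*, *Hes1* and *Hey2*, and below 0 for *Jag1* and *Hey1*. The share of all genes with an interval off 0 was not computed, so these counts are not a result about the Notch genes as a group. Of all 15694 genes tested in this comparison, 30.6% had a log2 ratio beyond 1 in either direction. In blastocysts the medians were 0.08, -0.06 and -0.29, beside -0.00, -0.01 and -0.01 over all genes.

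Levels of different genes were compared as TPM values, in which reads are divided by the summed exon length of the tables and scaled to the same total in each library. The tables were normalised separately for each tissue, so an order of genes holds within a library and no level is tested between tissues. *Hes1*, which keeps progenitor cells undifferentiated in many tissues, had the highest level of the 10 in all 6 libraries. It made up 73.8%, 89.0% and 82.9% of the summed TPM of the 10 genes in the luminal layer (control, eKO and eKO with rLif) and 76.3%, 80.8% and 81.6% in blastocysts. In the control-labelled luminal library the order was *Hes1* at 108 TPM, *Hey1* at 19.4, *Jag1* at 10.9, *Notch1* at 3.06 and *Notch2* at 2.37, with no overlap of counting intervals between neighbours. *Notch4*, *Jag2*, *Hey2* and *Notch3* followed between 0.489 and 0.892 TPM, and each overlapped its neighbour among these 4. *Dll1* was last at 0.0405 TPM.

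The order changed below *Hes1* in the other luminal libraries. In the library labelled eKO, *Jag1* and *Notch1* stood next with overlapping intervals (5.27 and 5.07 TPM), and *Notch2*, *Hey2* and *Hey1* followed at 4.30, 3.86 and 2.92 TPM, each overlapping its neighbour. In the luminal library with rLif, *Jag1* stood alone next to *Hes1* at 17.6 TPM, ahead of *Notch1* at 4.08 and *Hey1* at 2.17 TPM. In blastocysts *Jag2* held the place after *Hes1* in all 3 libraries, at 7.40, 5.51 and 3.86 TPM, without overlap with the next gene. *Notch1* and *Notch2* came next in each blastocyst library, between 1.84 and 2.45 TPM, and overlapped each other.

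**Figure D1:**
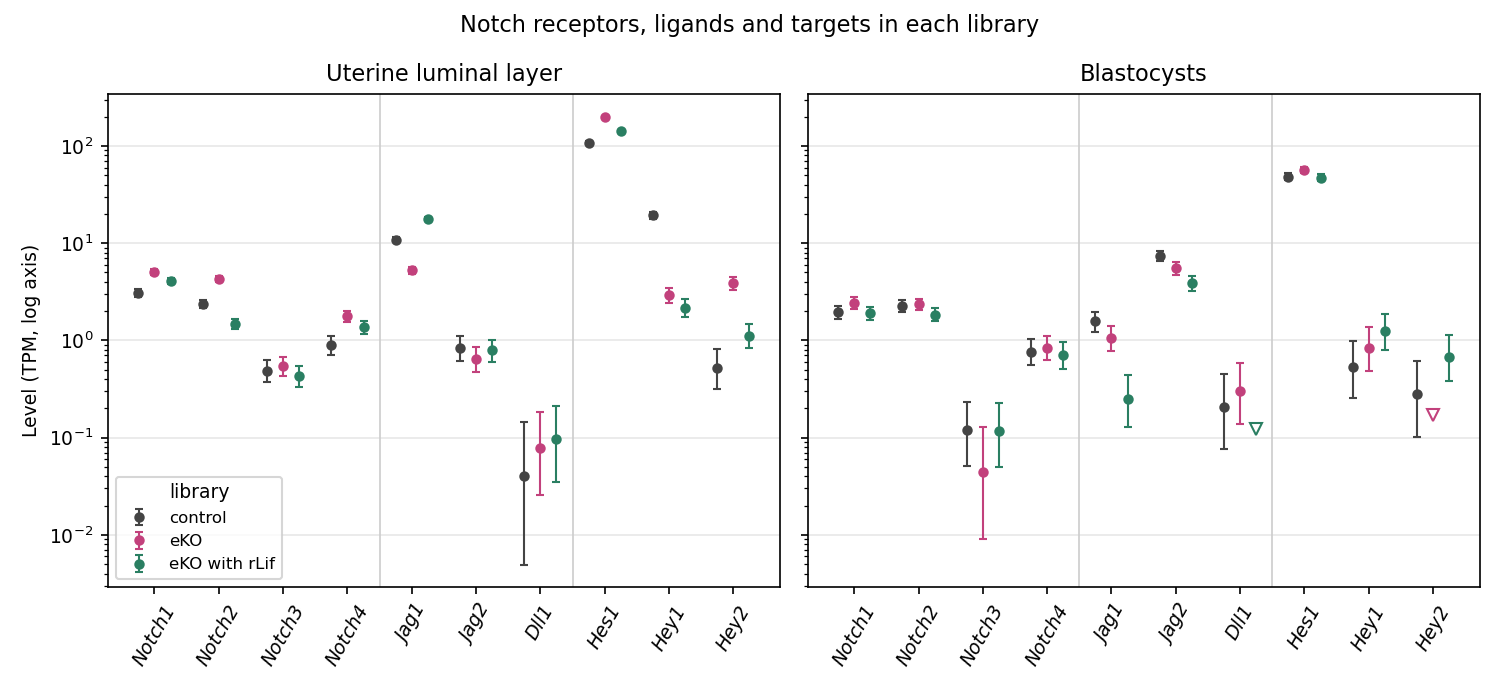
Level of each Notch gene in TPM on a log axis, in the 3 luminal libraries (left) and the 3 blastocyst libraries (right), 1 point per library with the exact Poisson 95% interval of its count. Open triangles mark libraries with 0 reads, drawn at the upper bound of that interval. *Hes1* is highest in every library, *Jag1* exceeds *Jag2* in the luminal layer, and *Jag2* exceeds *Jag1* in blastocysts.

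Among the receptors, *Notch1* (chr2:26457902-26503822, minus strand), the receptor found in most epithelia, had 419 reads in the control-labelled luminal library, 891 in eKO and 702 with rLif, or 3.06, 5.07 and 4.08 TPM. The control library was lowest and both eKO-labelled libraries were above it. The log2 ratio was 0.90 (interval 0.73 to 1.07) for eKO against control and 0.70 (0.52 to 0.88) for eKO with rLif against control, neither wholly beyond 1. *Notch1* was slightly lower with rLif than in eKO, by a log2 ratio of -0.20 (-0.35 to -0.06).

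*Notch2* (chr3:98013538-98150367, plus strand) showed the largest luminal difference among the receptors. It had 359 reads in the control-labelled library, 837 in eKO and 282 with rLif, or 2.37, 4.30 and 1.48 TPM. The library labelled eKO stood above both others, which lay closer together. The log2 ratio for eKO with rLif against eKO was -1.43 (-1.63 to -1.23), a 2.69-fold lower level and called. For eKO against control it was 1.04 (0.86 to 1.22), which crossed the limit, and for eKO with rLif against control -0.39 (-0.62 to -0.16). Of the 10731 stretches of 50 bases in its annotated transcripts, 403 (3.76%) also occur in the predicted gene *Gm42820*, so a small part of its reads could have been assigned elsewhere. The summed stromal list stood at 739, 1129 and 780 CPM in control, eKO and eKO with rLif. The luminal epithelial list stood at 5308, 7981 and 5699 CPM in the same order. The part of the cells of either list in the *Notch2* difference was not tested.

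*Notch4* (chr17:34564295-34588543, plus strand), a receptor known mainly from endothelium, had 85, 217 and 165 luminal reads under the labels control, eKO and eKO with rLif (0.892, 1.78 and 1.38 TPM). The control library was lowest. Its log2 ratio was 1.17 (0.80 to 1.55) for eKO against control and 0.91 (0.53 to 1.31) for eKO with rLif against control, neither called. Of the 9 endothelial markers, 1 was called higher and 0 lower in eKO against control, and 2 higher and 0 lower in eKO with rLif against control. The endothelial cadherin gene *Cdh5* had 232, 623 and 602 reads in these libraries, and *Pecam1*, the gene of the endothelial adhesion molecule CD31, had 332, 305 and 275. All 9 were detected in every luminal library. Whether endothelial RNA had a part in the *Notch4* values was not tested.

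*Notch3* (chr17:32120893-32166852, minus strand), the receptor of pericytes and vascular smooth muscle, had 56, 80 and 62 luminal reads (0.489, 0.544 and 0.430 TPM). All 3 luminal ratios had intervals that included 0, the one reaching farthest from 0 ending at 0.85 for eKO against control, so a difference up to that size could not be seen at this depth. As a sum, the smooth muscle and pericyte list was lower with rLif, with 4 of its 8 genes called lower against control. *Acta2*, a smooth muscle actin gene of the list, had 470, 309 and 134 reads. The pericyte genes of the list did not share this fall, with 421, 1027 and 517 reads of *Rgs5* and 110, 148 and 105 of *Cspg4*. The part of these cells in the *Notch3* values was not tested.

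In blastocysts the receptors differed little between libraries. *Notch1* had 157 reads in control, 200 in eKO and 157 with rLif, and *Notch2* had 202, 213 and 168. Control and rLif libraries had equal reads of *Notch1*, and eKO was highest for both receptors. The log2 ratio for eKO with rLif against eKO was -0.34 (-0.65 to -0.03) for *Notch1* and -0.33 (-0.63 to -0.04) for *Notch2*. *Notch4* had 43, 48 and 41 reads, and the intervals of its 3 ratios included 0 and stayed between -0.86 and 0.75. *Notch3* was near the limit of detection, with 8, 3 and 8 reads, and its intervals ran from -4.00 to 3.97, so differences of that size were not detectable.

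Among the ligands, *Jag1* (chr2:137081451-137116520, minus strand), which encodes Jagged 1, was higher in the luminal library with rLif than in eKO and lower in the blastocyst library with rLif than in eKO. In the luminal layer it had 864 reads in the control-labelled library, 536 in eKO and 1759 with rLif, or 10.9, 5.27 and 17.6 TPM. The library labelled eKO was lowest and the one with rLif highest, above control as well. *Jag1* was 3.62-fold higher with rLif than in eKO (log2 1.86, 1.72 to 2.00), which was called. Against control, the log2 ratio was -0.87 (-1.03 to -0.72) for eKO and 0.98 (0.86 to 1.10) for eKO with rLif, both crossing the limit.

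In blastocysts *Jag1* had 73 reads in control, 50 in eKO and 12 with rLif, or 1.57, 1.06 and 0.252 TPM. Here the library with rLif was lowest and control highest. It was 6.20-fold lower with rLif than in control (log2 -2.63, -3.65 to -1.74) and 4.14-fold lower than in eKO (log2 -2.05, -3.10 to -1.12), and both were called. The eKO against control ratio was -0.58 (-1.13 to -0.04). The immune list also was lowest in the blastocyst library with rLif, at 65.1, 127 and 22.6 CPM in control, eKO and eKO with rLif, with 2 of its 8 genes called lower against control and 3 against eKO. Most of this sum was *Lyz2*, the lysozyme gene of macrophages, with 976, 2128 and 289 reads. The glandular list of 6 genes stood at 6.82, 6.50 and 2.37 CPM, and the stromal list of 9 at 157, 171 and 159 CPM with 4 genes called lower with rLif than in control. Most of the stromal sum was *Pdgfra*, also a primitive endoderm marker, with 2354, 2845 and 2718 reads. The matrix genes *Dcn* (164, 84 and 51 reads) and *Col3a1* (122, 60 and 28) stood in the order of *Jag1*, as did *Hoxa11* (24, 10 and 1). So did *Foxa2* of the glandular list (103, 61 and 26) and *Krt19* of the luminal epithelial list (1401, 241 and 108). These genes were picked for that order. Others of the same lists did not follow it, among them *Pdgfrb* (204, 300 and 257), *Lum* (34, 13 and 16), *Aldh1a1* (17, 58 and 18) and *Lpar3* (12, 27 and 26). In the luminal libraries *Foxa2* had only 3, 0 and 10 reads. Of the uterine markers, the gland genes *Prss28* and *Cxcl15* and the luminal gene *Wnt7a* had 0 reads in all 3 blastocyst libraries, and every gene of the immune list was detected in each. The part of cells other than embryo cells in the *Jag1* values was not tested.

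*Jag2* (chr12:112908590-112929495, minus strand), the other Jagged gene, had 49, 48 and 58 luminal reads (0.838, 0.640 and 0.788 TPM), and its 3 luminal intervals included 0. In blastocysts it was the main ligand, with 254 reads in control, 192 in eKO and 136 with rLif. The libraries stood in that order, from control down to rLif. The log2 ratio was -0.44 (-0.72 to -0.16) for eKO against control, -0.93 (-1.24 to -0.62) for eKO with rLif against control and -0.49 (-0.82 to -0.17) for eKO with rLif against eKO, none called.

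The balance of the 2 Jagged genes was read within each library, where scaling between libraries plays no part. Per length, *Jag1* exceeded *Jag2* by 13.0-fold (9.75 to 17.7) in the control-labelled luminal library, 8.24-fold (6.13 to 11.3) in eKO and 22.4-fold (17.2 to 29.6) in eKO with rLif. The interval with rLif did not overlap that of eKO. In blastocysts the ratio of *Jag1* to *Jag2* was 0.212 (0.161 to 0.276) in control, 0.192 (0.138 to 0.264) in eKO and 0.0651 (0.0328 to 0.118) in eKO with rLif. There the rLif library was lowest and did not overlap the other 2, so the rLif library had more *Jag1* per *Jag2* than eKO in the luminal layer and less in blastocysts. As a share of the summed TPM of all 10 genes, the 3 ligands held 8.02%, 2.69% and 10.9% in the luminal libraries and 14.4%, 9.83% and 7.12% in blastocysts.

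*Dll1* (chr17:15367354-15375823, minus strand), the Delta-like ligand that acts in somite segmentation and the intestinal crypt, was close to undetected. It had 2, 5 and 6 luminal reads, and its eKO to control ratio of 1.14 (log2) had a counting interval of -1.47 to 4.53. In blastocysts it had 6 reads in control, 9 in eKO and 0 with rLif. With a floor of 3 reads for the library at 0, it was at least 2.04-fold lower with rLif than in control and at least 2.98-fold lower than in eKO, before the counting error of the 6 and 9 reads. With that error, the log2 ratios were bounded only by -0.26 and -0.97, and neither was called.

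**Figure D2:**
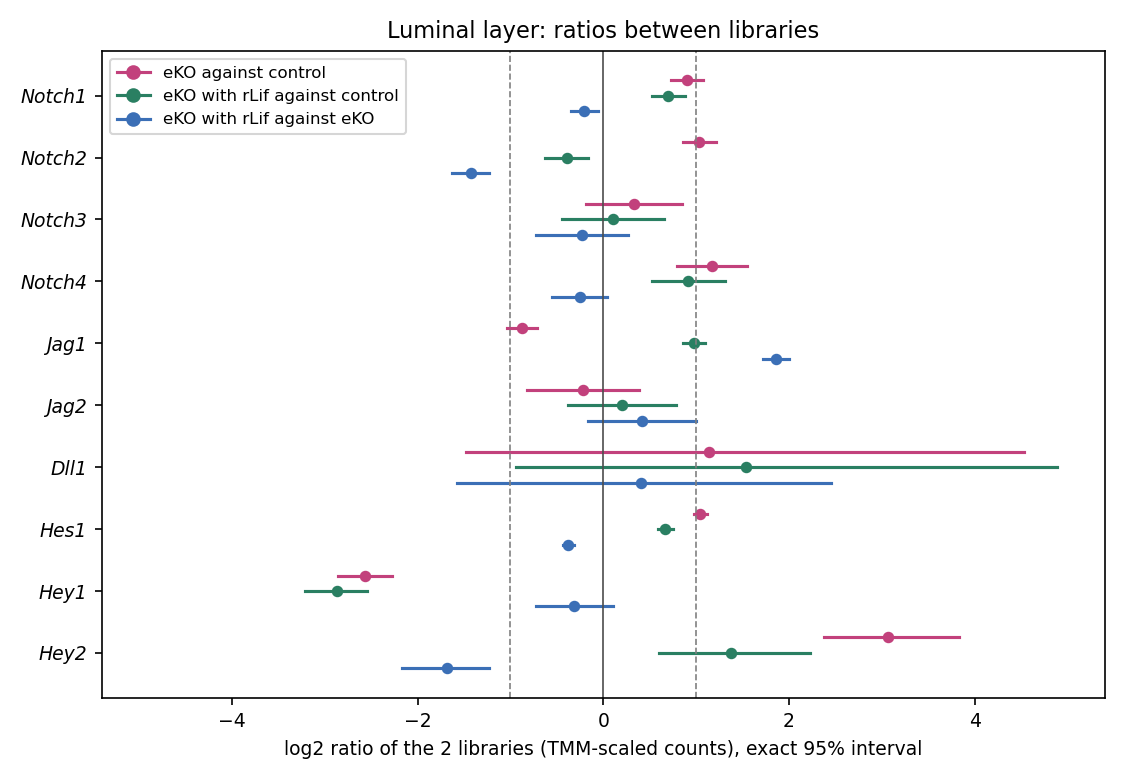
Log2 ratio of each Notch gene between 2 luminal libraries, with its exact 95% interval, for the 3 comparisons. Dashed lines mark the limits of -1 and 1. Intervals wholly outside them belong to *Hey2* and *Hey1* for eKO against control, *Hey1* for eKO with rLif against control, and *Jag1*, *Notch2* and *Hey2* for eKO with rLif against eKO.

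Among the target genes, *Hes1* (chr16:30065357-30067796, plus strand) had 2269 reads in the control-labelled luminal library, 5326 in eKO and 3723 with rLif, or 108, 198 and 141 TPM. Control was lowest, eKO highest and the library with rLif between them. The log2 ratio was 1.05 (0.97 to 1.12) for eKO against control, with a lower bound just inside the limit, 0.67 (0.59 to 0.75) for eKO with rLif against control and -0.38 (-0.44 to -0.31) for eKO with rLif against eKO. In blastocysts *Hes1* had 596, 705 and 594 reads (48.5, 56.5 and 47.2 TPM). The order was again highest in eKO, by a log2 ratio of 0.21 (0.05 to 0.37) over control, and the library with rLif was lower than eKO by -0.24 (-0.40 to -0.08). All these blastocyst differences were far inside 2-fold.

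*Hey1* (chr3:8663359-8667038, minus strand), a target of Notch in vessels, heart and epithelia, was below control in both eKO-labelled luminal libraries. It had 617 reads in the control-labelled library, 119 in eKO and 87 with rLif, or 19.4, 2.92 and 2.17 TPM. The control library stood alone, and the other 2 overlapped. *Hey1* was 5.90-fold lower in eKO than in control (log2 -2.56, -2.86 to -2.27) and 7.31-fold lower in eKO with rLif than in control (log2 -2.87, -3.21 to -2.54). Between the 2 eKO-labelled libraries the log2 ratio was -0.31 (-0.73 to 0.10), an interval that leaves the rLif library at most 0.10 log2 units above eKO on the side of control. In the smooth muscle and pericyte list, 2 of 8 genes were called lower in eKO than in control and 4 with rLif. Of these, *Actg2* had 142, 7 and 1 reads and *Cnn1* 124, 29 and 11, while *Rgs5*, a pericyte gene of the list, had 421, 1027 and 517. The part of these cells in the *Hey1* difference was not tested.

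In blastocysts *Hey1* was low, with 10 reads in control, 16 in eKO and 24 with rLif (0.535, 0.844 and 1.25 TPM). Only the ratio of eKO with rLif against control had an interval off 0, at 1.23 (0.12 to 2.46), and it was not called. The order of the blastocyst libraries was thus the reverse of the luminal one, at counts where intervals of neighbouring libraries overlapped.

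*Hey2* (chr10:30832359-30842783, minus strand), a relative of *Hey1* known from the heart and arteries, ran against *Hey1* in both luminal comparisons with control. It had 19 reads in the control-labelled library, 181 in eKO and 51 with rLif, or 0.520, 3.86 and 1.11 TPM. The library labelled eKO stood apart at the top, and the rLif library lay between it and control. *Hey2* was 8.37-fold higher in eKO than in control (log2 3.07, 2.38 to 3.83) and 3.22-fold lower in eKO with rLif than in eKO (log2 -1.69, -2.16 to -1.23). With rLif it stayed above control by a log2 ratio of 1.38 (0.59 to 2.22), which was not called. The stromal, luminal epithelial and endothelial lists also stood above control in the eKO-labelled library, at log2 ratios of their summed CPM of 0.61, 0.59 and 0.41. The part of any of these cells in the *Hey2* difference was not tested.

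*Hey2* in blastocysts had 6 reads in control, 0 in eKO and 15 with rLif. Against the floor of 3 reads, eKO was at least 2.05-fold lower than control before the counting error of the 6 reads. With that error the log2 ratio was bounded only by -0.27, so it was not called. The rLif library was at least 5.03-fold higher than eKO against the floor, with an interval bound of 1.85 (log2) that led to a call, and it exceeded control by a log2 ratio of 1.29 with an interval of -0.15 to 2.95. This call rests on 15 reads.

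Within each luminal library, the ratio of *Hey1* to *Hey2* per length was 37.3 (23.7 to 62.4) in control, 0.755 (0.594 to 0.957) in eKO and 1.96 (1.37 to 2.82) in eKO with rLif. None of these 3 intervals overlapped, and *Hey2* exceeded *Hey1* in the library labelled eKO alone. In blastocysts the ratio was 1.91 (0.630 to 6.41) in control and 1.84 (0.925 to 3.77) in eKO with rLif, while eKO had 16 reads of *Hey1* and 0 of *Hey2*.

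**Figure D3:**
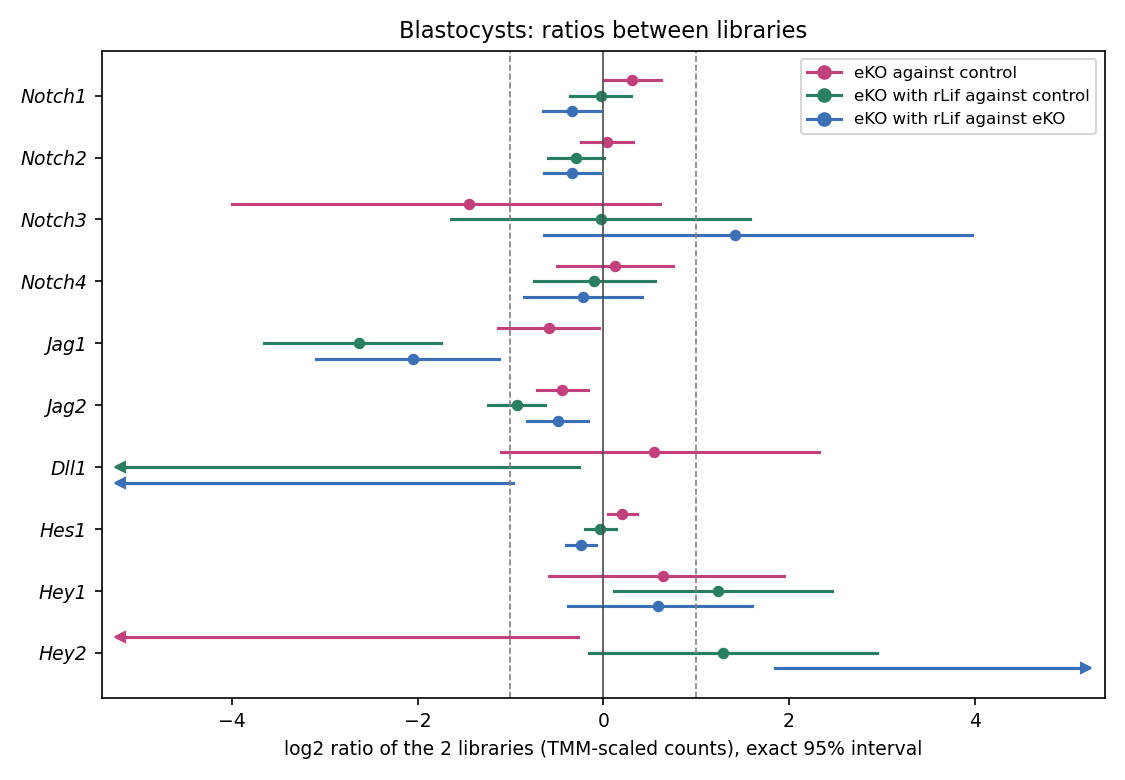
Log2 ratio of each Notch gene between 2 blastocyst libraries, with its exact 95% interval, for the 3 comparisons. Arrows mark ratios with a library at 0 reads, which are unbounded on 1 side, and dashed lines mark -1 and 1. *Jag1* lies wholly below -1 in both comparisons of the rLif library, and *Hey2* wholly above 1 for eKO with rLif against eKO.

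The rest of the pathway was read from a list of 47 other genes, of which 41 passed the filter in the luminal layer and 40 in blastocysts. The list covers other ligands, ligand endocytosis, receptor glycosylation, cleavage, the nuclear complex, inhibitors and receptor turnover, and the other Hes and Hey genes. In the luminal layer, eKO against control had 1 gene called higher (*Dtx4*) and 2 lower (*Furin* and *Maml3*). For eKO with rLif against control, 0 were higher and 2 lower (*Dll4* and *Maml3*), and for eKO with rLif against eKO, 1 was higher (*Dlk2*) and 1 lower (*Dtx4*). The medians of the passing genes were -0.12, -0.10 and 0.14, beside 0.01, 0.01 and -0.01 over all genes. These numbers of calls are at or below the shares called among all genes.

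*Maml3*, one of the Mastermind-like coactivators, had 304 reads in the control-labelled luminal library, 35 in eKO and 47 with rLif, with log2 ratios against control of -3.30 (-3.85 to -2.80) and -2.74 (-3.21 to -2.29). Its relatives *Maml1* and *Maml2*, with 224, 521 and 329 reads and 162, 414 and 166 reads, were not called, and stood above control in eKO at log2 ratios of 1.03 and 1.17. *Rbpj*, the DNA-binding partner of the receptor's intracellular domain, had 276, 719 and 364 reads. The library labelled eKO was highest, with a log2 ratio of 1.20 (0.99 to 1.40) over control, just short of a call.

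*Dtx4*, a Deltex ubiquitin ligase that acts on Notch trafficking, had 357 reads in the control-labelled luminal library, 1478 in eKO and 214 with rLif. It was highest in eKO, by a log2 ratio of 1.86 (1.70 to 2.03) over control, and lower by -2.65 (-2.86 to -2.44) with rLif than in eKO. *Furin*, the protease that cuts the receptor precursor in the Golgi, had 431, 188 and 240 reads, a log2 ratio of -1.38 (-1.64 to -1.13) for eKO against control. *Dll4*, the Delta-like ligand of endothelial tip cells, had 544, 434 and 173 reads, and was lower with rLif than in control by -1.70 (-1.95 to -1.45). *Dlk2*, a non-canonical ligand, had 3, 1 and 13 reads, and its call for eKO with rLif against eKO rests on a log2 ratio of 3.84 with an interval of 1.11 to 9.25.

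Among the other Hes and Hey genes, *Hes2*, *Hes3*, *Hes5* and *Hes7* had 0 reads in all 3 luminal libraries. *Hes6* had 1825, 2269 and 1463 reads and *Heyl* 68, 175 and 80, and neither was called. *Heyl* was highest in the library labelled eKO, with a log2 ratio of 1.18 (0.77 to 1.60) over control, while *Nrarp*, a feedback inhibitor and Notch target, had 159, 164 and 103 reads.

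**Figure D4:**
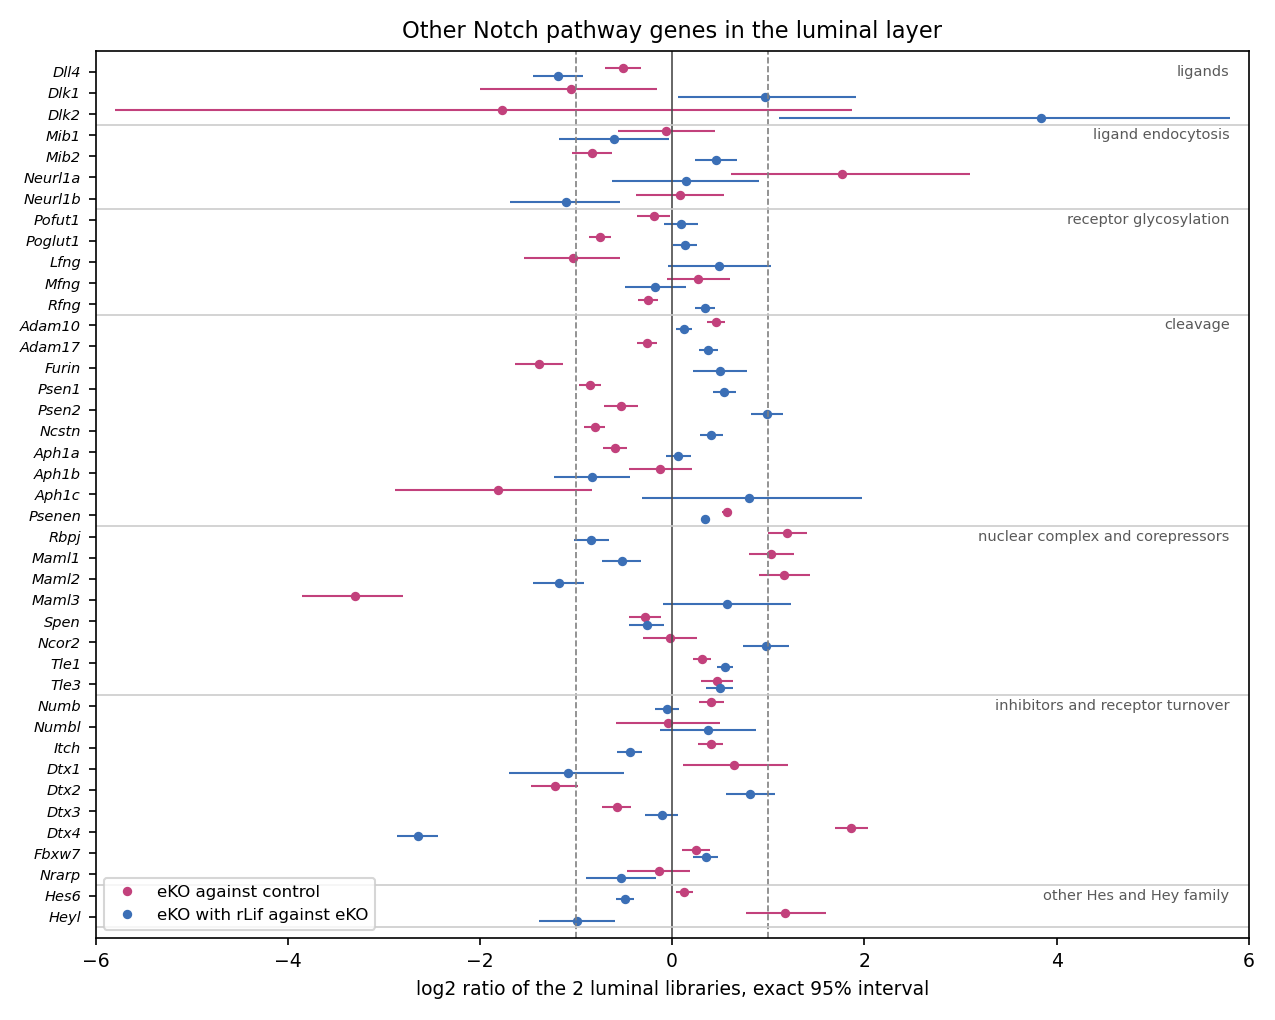
Log2 ratio with exact 95% interval for the 41 other Notch pathway genes that passed the filter in the luminal layer, grouped by role, for eKO against control and for eKO with rLif against eKO. The intervals of *Dlk2* run past the plotted range, and dashed lines mark -1 and 1. *Maml3* lies farthest below -1 for eKO against control, and *Dtx4* crosses from above 1 to below -1 between the comparisons.

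In blastocysts, eKO against control had 1 gene of this list called higher (*Maml2*) and 2 lower (*Dll4* and *Dtx4*). Against control, eKO with rLif had 1 higher (*Maml2*) and 4 lower (*Dll4*, *Lfng*, *Dtx4* and *Nrarp*), and against eKO it had 0 higher and 2 lower (*Lfng* and *Rbpjl*). Over all genes, 1.29% were called higher and 1.86% lower in the first of these comparisons, 0.948% and 3.99% in the second, and 0.914% and 2.83% in the third. Out of 40 genes, the counts lower were above these shares in all 3 comparisons and the counts higher in the first 2. Counts of 0 to 4 out of 40 rest on few genes. They are not a result about this list as a group, and no difference from the luminal layer is drawn from them. *Nrarp* had 80 reads in control, 30 in eKO and 16 with rLif, and was lower with rLif than in control by a log2 ratio of -2.35 (-3.22 to -1.56). The other genes called here had at most 32 reads in any blastocyst library. The medians of the 40 passing genes were 0.06, -0.11 and -0.12, beside -0.00, -0.01 and -0.01 over all genes.

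*Lfng*, a Fringe glycosyltransferase that alters which ligands a receptor answers, had 25 reads in control, 25 in eKO and 2 with rLif. Its log2 ratio with rLif was -3.67 (-6.79 to -1.67) against control. *Dtx4* had 32, 7 and 4 reads, and *Dll4* had 17 in control and 0 in both others, at least 5.81-fold lower in eKO and at least 5.78-fold lower with rLif against the floor, with interval bounds of -2.08 and -2.07 (log2). *Maml2* had 0 reads in control, 27 in eKO and 11 with rLif, at least 8.78-fold and at least 3.60-fold higher against the floor, with interval bounds of 2.74 and 1.30 (log2). *Rbpjl*, a relative of *Rbpj*, had 2, 11 and 0 reads. *Rbpj* itself was abundant, with 2327, 3014 and 3343 reads, and was lowest in control, by a log2 ratio of 0.34 (0.26 to 0.42) for eKO and 0.49 (0.42 to 0.57) for eKO with rLif. *Heyl* had 0 reads in all 3 blastocyst libraries.

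For the 5 Notch genes whose luminal level ranged over more than 1 on the log2(CPM + 2) scale, the 2 nearest patterns among 13656 genes passing the filter in both tissues were found by Euclidean distance over the 6 libraries, after centring within each tissue. The nearest to *Hes1* were *Eea1* (distance 0.0598) and *Tmlhe* (0.0767). *Eea1*, which encodes an early endosome tether, had 751, 1738 and 1216 luminal reads and 739, 836 and 733 in blastocysts. The nearest to *Notch2* were *Pdlim3* (0.0861; 193, 499 and 159 luminal reads) and *Pcp4l1* (0.0894). *Hey2* was nearest to *Aamdc* (0.107; 1317, 4774 and 1976 luminal reads) and *Susd2* (0.196).

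Matches to the remaining genes were looser. *Hey1* was nearest to *Mettl7a1* (0.298), with 2688, 689 and 544 luminal reads, and *Slc16a11* (0.312), with 2649, 674 and 662. *Jag1* was nearest to *Rps15a-ps6* (0.393), a pseudogene whose reads may come from its parent gene, and *Ankrd37* (0.413), with 201, 106 and 367 luminal and 117, 120 and 61 blastocyst counts. With a pseudocount of 0.5 in place of 2, *Eea1* was still the nearest to *Hes1*, while the other 9 ranked between 2 and 45. A distance over 6 libraries describes likeness of levels and nothing more.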

How the data were processed

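RNA-seq was analysed for 6 libraries, 1 per group, 3 from the luminal layer and 3 from blastocysts, with groups taken from the sample labels. Both deposited tables, 1 for each tissue, held raw counts of reads per gene that the authors had not normalised. The submitters' processing notes name HISAT2, featureCounts, Subread 2.0.0 and GRCm38/mm10, and the study's methods call the output RPKM, but every value was whole and the totals differed between libraries. Settings for strand and for reads mapping to several places were not given in the sources used here.

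TMM factors (edgeR 4.0.16 in R 4.3.3) scaled the libraries over genes with at least 10 counts summed over 3 libraries. Intervals (95%) were exact, by Clopper-Pearson for ratios and by Poisson for single counts (scipy 1.17.1). A gene was called when its interval lay wholly beyond a log2 ratio of 1. A library at 0 was given a floor of 3 counts, which is 0.104 to 0.119 CPM in the luminal layer and 0.153 to 0.157 CPM in blastocysts. TPM used the tables' exon lengths. Depth, in the order control, eKO and eKO with rLif, was 23850565, 28460465 and 27809527 reads for the luminal layer and 18996158, 19638852 and 19417359 for blastocysts. Only the ratio intervals and the calling rule were tested on simulated data, drawn with counting error alone and large changes in well-counted genes. That test did not cover changes in low-count genes or PCR copies.

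The Notch genes, the pathway and marker lists and the rules were chosen with earlier results of these data known. Named genes were all 10 Notch genes, at most 12 pathway genes with a call (9 had one), and the 2 genes of nearest pattern. *Rbpj*, *Maml1*, *Hes6*, *Heyl*, other uncalled pathway genes and single marker genes were named after their values were seen. The tables used the older symbols of *Cxcl15*, *Spink1* and *Adgre1*. Gene positions are from the tables. Coding ends (1 is not reported here) and shared 50-base stretches came from GENCODE M21 and promoters from RefSeq (GRCm38.p6). The alternatives were DESeq2 1.42.0 size factors, total counts with and without the 20 most abundant genes, other filters and limits, and edgeR's exact test at fixed dispersions of 0.1 and 0.4 with a false discovery rate of 0.05.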

Additional observations from a re-analysis of the deposited data

Results flagged for a closer look

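Results were listed here where a Notch gene moved in opposite directions in the 2 tissues under the same contrast, with both intervals off 0. Each tissue has 1 library per group, and the difference between tissues was not tested. *Jag1* in eKO with rLif against control had a log2 ratio of 0.98 in the luminal layer and -2.63 in blastocysts, a difference of 3.61. Against eKO, its log2 ratio with rLif was 1.86 in the luminal layer and -2.05 in blastocysts, a difference of 3.91. *Hey1* in eKO with rLif against control had a log2 ratio of -2.87 in the luminal layer and 1.23 in blastocysts, a difference of -4.11, and its blastocyst counts were 10 in control and 24 with rLif. *Hey2* in eKO against control had a log2 ratio of 3.07 in the luminal layer and, with 6 reads in control and 0 in eKO, an interval wholly below -0.27 in blastocysts, a difference of 3.34 at that bound. With rLif against eKO, *Hey2* had a log2 ratio of -1.69 in the luminal layer and, with 15 reads against 0, an interval wholly above 1.85 in blastocysts, a difference of -3.54 at that bound. The luminal values hold for the libraries as labelled.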

How the results depend on the processing

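With DESeq2 size factors, total counts, total counts without the 20 most abundant genes, or no filter, the numbers of Notch genes called were equal in all 6 comparisons and no median changed sign, the largest move being from 0.69 to 0.51 for luminal eKO with rLif against control with total counts. The numbers called depended on the limit. With a log2 limit of 0 they were 7, 7 and 5 in the luminal layer (eKO against control, eKO with rLif against control, eKO with rLif against eKO) and 5, 4 and 7 in blastocysts. With a limit of 2 they were 0 for luminal eKO with rLif against eKO and 0 for both blastocyst comparisons of the rLif library. Shares over all genes were not computed at these limits, so these counts are not a result about the Notch genes as a group. At least 50 counts left 1 for blastocyst eKO with rLif against eKO. The edgeR exact test at a dispersion of 0.1 gave 0 for luminal eKO with rLif against eKO and 0 for both blastocyst comparisons of the rLif library. It kept *Hey2* and *Hey1* for luminal eKO against control, where 537 of all 15694 genes were higher and 713 lower. It also kept *Hey1* for luminal eKO with rLif against control, where 136 were higher and 206 lower. At 0.4 the edgeR test gave 0 in all 3 luminal and all 3 blastocyst comparisons. For luminal eKO against control, 3 of all genes were then higher and 26 lower. The causes were not tested. Of 288 log2 ratios of single Notch genes under other scalings or filters, 279 stayed within their interval and 9 moved, by at most 0.177, and 2 changed sign.

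Leaving out a replicate was not possible with 1 library per group. No paired analysis was possible because each group has 1 library and the labels give no shared replicate numbers. The intervals cover only counting error with each read taken as independent. The spread between animals, between microdissections and between library preparations is thus not in them. *Dll1* and *Notch3* in blastocysts, and *Hey2* there, had 15 counts or fewer in every library, and depth limits what can be said of them.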
